A study of Mus musculus with 2 samples.

Results

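Plasmacytoid dendritic cells (pDCs) were examined in single-cell RNA data from mouse hearts taken 7 days after a myocardial infarction, in which part of the heart muscle dies for lack of blood. A kept cell was counted as a pDC when it held at least 2 UMIs of Siglech, 0 UMIs of the T cell gene Cd3e and of the B cell gene Cd79a, and at most 1 UMI of the macrophage genes C1qa, C1qb and C1qc together. A UMI (unique molecular identifier) stands for 1 captured RNA molecule. By this rule 162 of 10144 kept cells were pDCs, 73 in the library from wild-type mice given anti-IgG and 89 in the library from wild-type mice given anti-PD1, an antibody against the inhibitory receptor encoded by Pdcd1. All of these mice had an infarction, so both groups share it and no uninjured heart was analysed here. The labels call the cells T cells and the design speaks of a T cell sort, whereas the protocol records tissue digestion, red cell lysis and removal of dead cells. The labels do not say how many hearts went into a library.

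The pDC is a rare dendritic cell that detects viral and self nucleic acids with Toll-like receptors (TLRs) in its endosomes and is best known for releasing type I interferon through Irf7. Its identity depends on the transcription factor Tcf4 (E2-2), which opposes the inhibitor Id2, and on Irf8, Spib, Runx2 and Bcl11a. In mice the surface proteins Siglech and Bst2 mark it, and Ccr9 guides its homing. Resting pDCs hold a large secretory apparatus and present antigen less actively than conventional dendritic cells.

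Each group was 1 library, so there was no replicate to test against and every comparison below is a description of these 2 libraries. Levels are CPM (summed UMIs divided by the total and scaled to 1000000), ratios are the level in the anti-PD1 pDCs over that in the anti-IgG pDCs, and each range after a ratio or share is an exact 95% interval that covers counting error only. Such intervals are too narrow where the UMIs of a gene lie together in few cells. The pDCs held 596792 UMIs in the anti-IgG and 620133 in the anti-PD1 library, with medians of 8093 and 7153 UMIs and of 2871 and 2678 genes per cell. They were deeper than the T cells, whose medians were 4268 and 4058 UMIs, the B cells (2730 and 2439) and the macrophages (4789 and 5362). Of all barcodes, 47 sequences occurred in both libraries, and 0 barcodes were pDCs in both.

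pDCs made up 1.69% (1.33 to 2.13) of the kept anti-IgG cells and 1.53% (1.23 to 1.87) of the kept anti-PD1 cells. Among cells without a Cd3e UMI, which leaves the T cells out of the denominator, they made up 13.1% (10.4 to 16.2) of 557 and 10.9% (8.83 to 13.2) of 818. Both pairs of intervals overlap, but they hold counting error only, and with 1 library per group a difference in the share was not tested. With 0 UMIs of 6 further T and B cell genes also required, the shares were 1.02% and 1.15%, so their order was reversed. Fewer pDCs and pDCs lost in preparation cannot be told apart in such shares.

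The label was checked against 14 other markers of pDCs (Ccr9, Irf8, Tcf4, Spib, Runx2, Bst2, Ly6d, Cox6a2, Klk1, Pacsin1, Pld4, Cd300c, Lair1 and Klra17). The median pDC held UMIs of 13 of the 14 in both libraries, and 71 of 73 and 87 of 89 held at least 10. No macrophage or B cell chosen by its own marker held more than 6 of the 14, and no T cell more than 5, but these cells also had to hold 0 Siglech UMIs. Cells with Siglech and Cd3e together, which belong to neither group, held medians of 13 and 12 of the 14. Siglech itself ran from 2 to 64 UMIs per cell (median 26) in the anti-IgG library and from 2 to 76 (median 17) in the anti-PD1 library. At least 10 Siglech UMIs were found in 67 and 80 of the pDCs, so most lay far inside the limit. At the limit the picture was less clear: the 2 cells with exactly 2 Siglech UMIs held 2 and 5 of the 14 markers, and the only cell kept out for having 1 Siglech UMI held 4. Of the 4 cells with 3 or 4 Siglech UMIs, the number of markers was 11, 4, 1 and 10.

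**Figure D1:**
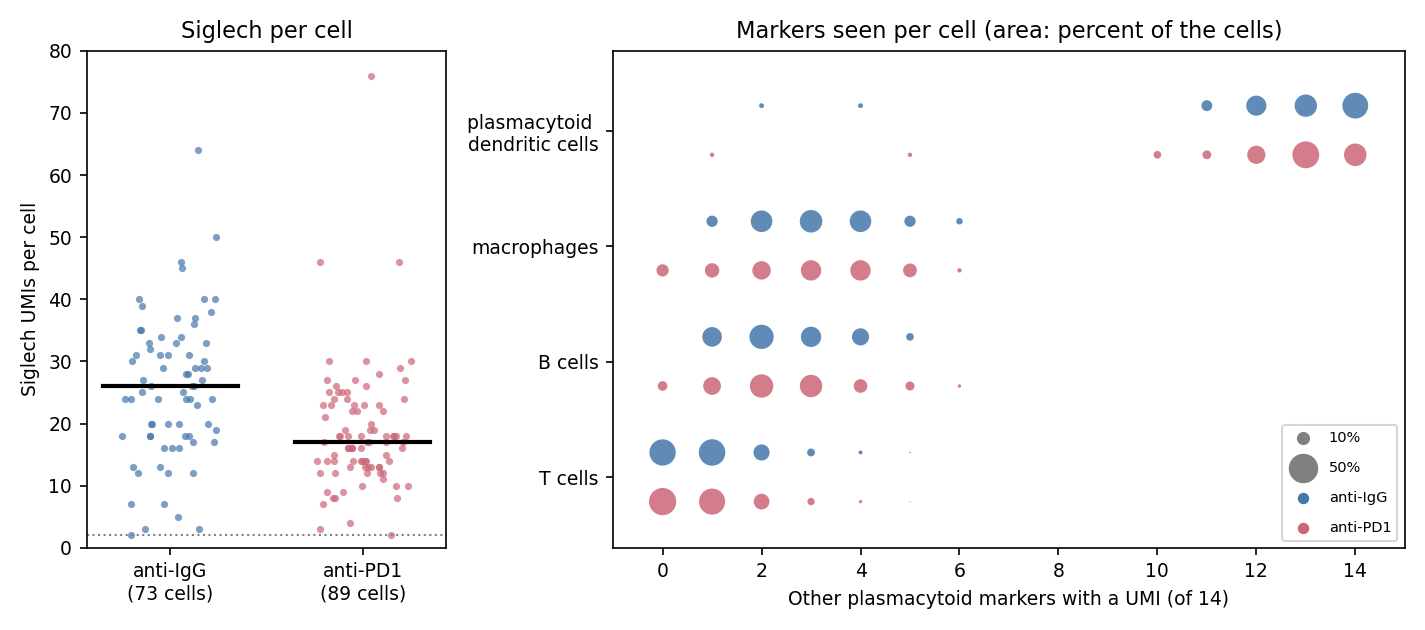
Left, Siglech UMIs per pDC in each library, where a point is 1 cell, the bar is the median (26 and 17) and the dotted line is the limit of 2 UMIs. Right, number of the 14 other pDC markers with a UMI per cell, with the area of each circle giving the percent of that cell type and library; pDCs sit at 10 to 14 except for a few cells at 1 to 5, and the other cells at 0 to 6.

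The main regulators of pDC identity differed in how widely they were seen. Irf8 reached 2696 CPM in the anti-IgG and 2748 CPM in the anti-PD1 pDCs and was seen in 97.3% and 98.9% of them, against 3.61% and 4.67% of the T cells. Tcf4 reached 1084 and 1001 CPM, against 9.42 and 4.38 in T cells, 107 and 114 in B cells and 127 and 112 in macrophages. Spib, a regulator that pDCs share with B cells, was seen in 79.5% and 82.0% of pDCs and in 40.7% and 30.9% of B cells. Id2, the inhibitor that Tcf4 opposes, was seen in 5.48% and 11.2% of pDCs against 55.0% and 46.4% of T cells, although the pDCs were the deeper cells. Zbtb46, a regulator of conventional dendritic cells, was seen in 2 anti-IgG and 0 anti-PD1 pDCs, which in the latter allows a share of cells with a UMI of up to 3.37% (3 of 89).

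Because the cells differ in depth, each was also thinned to 1000 UMIs, which left out 1 anti-PD1 pDC. Thinned, Irf8 was seen in 91.8% and 86.4% of pDCs and in 0.904% and 1.01% of T cells. Thinned Tcf4 was seen in 63.0% and 65.9% of pDCs and in 0.549% and 0.352% of T cells. Thinned Spib was seen in 27.4% and 26.1% of pDCs and 23.7% and 13.5% of B cells, so part of the gap between these cells lay in depth. Id2 was then seen in 0 pDCs and in 24.1% and 18.9% of T cells.

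Among surface genes, Bst2, a tetherin that holds viruses at the cell surface, stood at 4147 and 4834 CPM in pDCs and at 204 and 184 in T cells. Ccr9 stood at 783 and 695 CPM in pDCs, and was seen in 97.3% and 94.4% of them but in 5.80% and 2.94% of T cells. Ly6d was as widespread in B cells (89.8% and 88.6%) as in pDCs (87.7% and 91.0%) and was seen in 0 macrophages. The secreted kallikrein Klk1 was seen in 75.3% and 83.1% of pDCs and in 0 macrophages and B cells. Genes usually linked to T cells were also found in these Cd3e-negative cells: Cd4 in 89.0% and 80.9% and the inhibitory receptor Lag3 in 87.7% and 78.7%, against 2.77% and 2.76% of T cells for Lag3. Thinned, Lag3 was seen in 34.2% and 18.2% of pDCs and 0.484% and 0.604% of T cells.

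**Figure D2:**
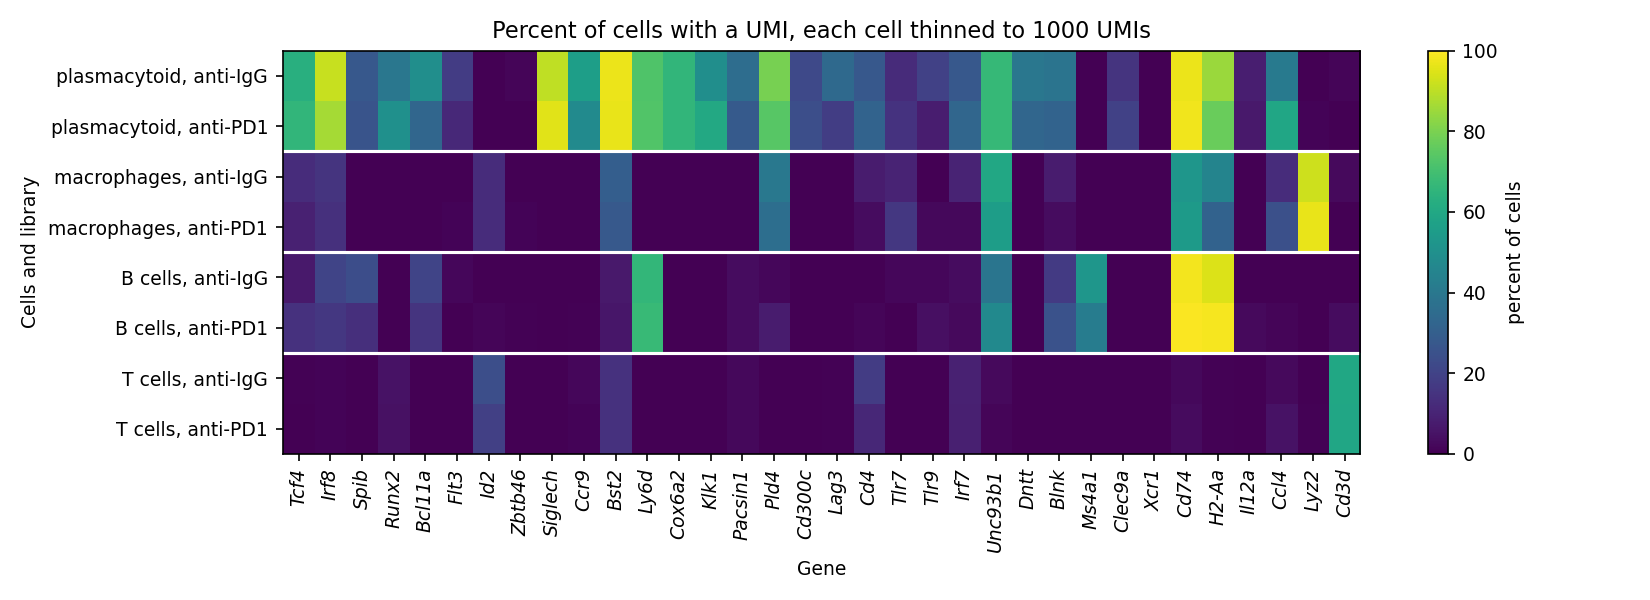
Percent of cells with a UMI of each gene (colour), with every cell thinned to 1000 UMIs, for 4 cell types (rows) in each library. Tcf4, Irf8, Siglech, Ccr9, Bst2, Cox6a2 and Klk1 are bright in the pDC rows, Ly6d is shared with B cells, Lyz2 belongs to macrophages and Cd3d to T cells; Siglech is 0 outside pDCs by the way the cells were chosen.

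The genes with the highest level in pDCs over all other kept cells included Pir (128-fold), Klra17 (115-fold), Grm8 (113-fold), Cd300c (107-fold), Klk1 (106-fold), Mycl (102-fold) and Cd209d (96.9-fold). Siglech, which chose the cells, stood at 104-fold. The other kept cells include 74 that held at least 2 Siglech UMIs together with T cell, B cell or macrophage transcripts. The folds were not recomputed without them. Among the 20 highest were genes best known from striated muscle, including Atp2a1 (a calcium pump, 106-fold), Sh3bgr (93.8-fold), Myh13 (a myosin, 93.2-fold) and Cox6a2 (a subunit of cytochrome oxidase, 91.0-fold). Atp2a1 was seen in 79.5% and 85.4% of pDCs, and in 0 macrophages and 0 B cells. The cardiomyocyte markers Myh6 and Actc1 were at 0 in all pDCs, and Tnnt2, Tnni3, Ttn, Myl2 and Nppa together gave 7 and 3 UMIs.

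The promoters of 3 identity genes are shown because E proteins such as Tcf4 bind the E-box CAGGTG, which reads CACCTG on the other strand. The 250 bases before the RefSeq start are given 5′ to 3′ on the strand of the gene (build GRCm38.p6, all on the plus strand), with the E-box in capitals. Siglech lies at chr7:55767934-55768183, Ccr9 at chr9:123766961-123767210 and Klk1 at chr7:44225110-44225359.
Siglech: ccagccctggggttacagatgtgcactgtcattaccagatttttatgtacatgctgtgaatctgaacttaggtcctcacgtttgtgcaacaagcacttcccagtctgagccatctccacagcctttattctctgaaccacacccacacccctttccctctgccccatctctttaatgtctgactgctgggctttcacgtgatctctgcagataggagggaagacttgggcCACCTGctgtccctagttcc
Ccr9: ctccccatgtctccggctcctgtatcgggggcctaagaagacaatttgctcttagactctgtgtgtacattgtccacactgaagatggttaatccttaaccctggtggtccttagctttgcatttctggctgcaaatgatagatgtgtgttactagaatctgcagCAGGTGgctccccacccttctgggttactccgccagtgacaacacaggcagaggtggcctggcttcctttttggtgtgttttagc
Klk1: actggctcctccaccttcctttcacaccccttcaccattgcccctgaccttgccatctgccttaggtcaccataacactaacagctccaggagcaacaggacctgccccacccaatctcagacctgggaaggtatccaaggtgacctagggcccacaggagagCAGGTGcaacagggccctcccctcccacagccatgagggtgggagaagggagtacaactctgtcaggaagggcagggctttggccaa
The E-box began 20, 85 and 87 bases before the start in Siglech, Ccr9 and Klk1. Of 32 such windows of the surface and identity list, 7 (21.9%) held the letters, against 17.2% of 32851 windows of all genes, so the list stood close to the background. A match is only a run of letters and no binding was measured here.

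Markers of other cell types were found to differing degrees. Of the B cell markers, seen in 25 of 73 and 23 of 89 pDCs with 0 to 3 UMIs per cell, Ms4a1 and Pax5 were at 0 and nearly all UMIs were of Cd79b (31 and 30). Of the macrophage and monocyte markers, Adgre1 and Mrc1 were at 0 and Csf1r gave 1 UMI in all, while Apoe was seen in 17.8% and 21.3% and Ccr2 in 60.3% and 43.8%. Of the conventional dendritic list, seen in 72 and 88 pDCs, Xcr1, Ccl22 and Snx22 were at 0 and Itgax was seen in 54.8% and 40.4%. Clec10a gave 167 and 152 UMIs and Sirpa 118 and 116, without the neutrophil-bearing and the T-marker-bearing cell described below. Endothelial markers were seen in 70 of 73 and 69 of 89 pDCs, at medians of 3 and 2 UMIs per cell, mostly Cdh5 (180 and 135 UMIs) and Pecam1 (78 and 69). The summed macrophage and monocyte list ran from 0 to 89 UMIs per anti-IgG pDC and from 0 to 74 per anti-PD1 pDC, mostly Ly6c2 and Cd68. Ly6c2 is also on the surface and identity list of pDCs and was seen in 95.9% and 92.1% of them. T cell markers were seen in 18 of 73 and 24 of 89 pDCs with a median of 0 and summed to 81 and 31 UMIs. A single anti-IgG cell held 27 of these, and it was also 1 of the cells with few pDC markers (4 of 14). Neutrophil markers gave 0 UMIs in the anti-IgG and 275 in the anti-PD1 pDCs, all in 1 cell. Red cell markers were at 0. The part of these transcripts in the library differences below was not tested, but of the 542 genes counted as different below, 487 kept that call and its direction without the neutrophil-bearing and the T-marker-bearing cell, a setting chosen after seeing the data.

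The pDCs also carried transcripts of related lineages. Clec9a, a receptor of type 1 conventional dendritic cells, was seen in 65.8% and 65.2%, and Cd209a, a receptor of conventional and monocyte-derived dendritic cells, in 58.9% and 57.3%. Of the genes shared with early B cells, the DNA polymerase Dntt was seen in 80.8% and 79.8% of pDCs and in 0 B cells, and the adaptor Blnk in 94.5% and 91.0%.

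Variation among the pDCs of 1 library was largest for a secreted chemokine. Ccl4 had a median of 3.47 UMIs per 10000 in anti-IgG and 12.2 in anti-PD1 pDCs, and its highest values were 203 and 181. The 8 highest anti-IgG and 9 highest anti-PD1 cells held 58.9% and 43.4% of the sum of those values, while 24 and 13 cells held 0 UMIs. Klk1, the next most variable gene, ran from 0 to 59.9 (median 3.89) and from 0 to 77.8 (median 7.63). Cd8b1, a chain of the CD8 co-receptor, was seen in 78.1% and 66.3% of pDCs, with medians of 8.65 and 3.94 per 10000. Ly6c2 (medians of 22.2 and 19.6) and Cd74 were also among the most variable. Cd74 reached 475 in the anti-IgG and 228 in the anti-PD1 library. These genes were chosen after their values were seen.

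The anti-PD1 and anti-IgG pDCs were then compared gene by gene. Of 6731 genes with at least 20 summed UMIs, 255 (3.79%) were higher and 287 (4.26%) lower in the anti-PD1 pDCs by a ratio of at least 1.5 with an interval that excludes 1, which is called past the fold below. Together these were 8.05% of the genes, and 46.8% of the counted genes had a ratio above 1. These shares are the background for every list below. The median gene had a log2 ratio of -0.06, and with ratios centred on it the counts were 327 higher and 239 lower. The same rule marked 5.08% of genes as higher and 11.3% as lower (16.4% together) in T cells, 9.0% and 3.29% (12.3%) in B cells, and 6.06% and 8.34% (14.4%) in macrophages, which differ in cell number and depth. In cells thinned to 1000 UMIs, 51 genes were higher and 45 lower in pDCs, and 31 of the 542 unthinned calls were kept.

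Of 15 counted dendritic lineage regulators, 2 were higher and 0 lower past the fold (median log2 ratio -0.11), against 3.79% and 4.26% of all genes. Irf8 had a ratio of 1.02 (0.952 to 1.09), Tcf4 of 0.924 (0.826 to 1.03) and Bcl11a of 0.901 (0.755 to 1.07). Runx2, which helps pDCs leave the bone marrow, had a ratio of 1.21 (1.04 to 1.41). The exceptions were Irf4, a regulator induced on activation, with 11 against 49 UMIs in 10 and 28 cells (ratio 4.29, 2.2 to 9.14), and Nfil3, a regulator of lymphoid and dendritic development, with 18 against 44 UMIs (2.35, 1.33 to 4.33). Both were also higher in the anti-PD1 T cells, with ratios of 3.30 and 3.49.

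Among 30 surface and identity genes 2 were higher and 0 lower past the fold (median log2 ratio -0.07). Klk1 gave 586 and 930 UMIs, a ratio of 1.53 (1.38 to 1.70), which fell just short of the fold without the neutrophil-bearing and the T-marker-bearing cell. Cadm1, an adhesion molecule, gave 14 and 31 UMIs, a ratio of 2.13 (1.1 to 4.34). Bst2 had a ratio of 1.17 (1.1 to 1.23), Ccr9 of 0.888 (0.777 to 1.01) and Ly6d of 0.992 (0.919 to 1.07). Siglech, which chose the cells, stood at 3127 and 2662 CPM (0.851, 0.796 to 0.910), given as a description.

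The nucleic acid sensing machinery was present in both libraries and differed little. Unc93b1, the chaperone that carries TLRs to endosomes, was seen in all pDCs, at 1227 and 1263 CPM (1.03, 0.930 to 1.14). Tlr7, the sensor of single-stranded RNA, was seen in 58.9% and 61.8% (ratio 0.862, 0.637 to 1.17) and Tlr9, the sensor of unmethylated DNA, in 61.6% and 47.2% (0.790, 0.558 to 1.11). Irf7 stood at 359 and 434 CPM (1.21, 1.01 to 1.45). Of 28 counted genes of the list, 0 were higher and 1 lower past the fold (median log2 ratio -0.01). That gene was Sting1, the adaptor of cytosolic DNA sensing, with 84 and 55 UMIs (0.630, 0.440 to 0.896), and its ratio was also below 1 in T cells (0.717) and macrophages (0.392).

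Interferon transcripts themselves were all but absent. Of 21 interferon ligand genes, 18 were at 0 in every pDC, including all Ifna genes of the list. The anti-IgG pDCs gave 1 UMI, of Ifng, and the anti-PD1 pDCs 4, of which 3 were Ifnl2 and 1 was Ifnb1. A count of 0 cells allows a share with a UMI of up to 4.11% in the anti-IgG pDCs and 3.37% in the others. The receptor chain Ifnar2 was seen in 93.2% and 94.4% of pDCs (ratio 1.04, 0.886 to 1.22) and Ifnar1 in 75.3% and 67.4% (1.16, 0.920 to 1.47). Of 13 counted interferon receptor and signalling genes, 1 was higher past the fold: Socs1, a feedback inhibitor of cytokine signalling, with 15 and 36 UMIs (2.31, 1.23 to 4.54).

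Type I interferon response genes leaned lower in the anti-PD1 pDCs. Of 31 counted, 24 had a ratio below 1 and 7 above, and 4 were lower and 0 higher past the fold. Over all counted genes 46.8% had a ratio above 1, and 4.26% were lower and 3.79% higher past the fold. The median log2 ratio of the list was -0.26 against -0.06 over all genes. Those 4 were Ifi27l2a (519 and 349 UMIs, 0.647, 0.563 to 0.743), the DNA-binding Ifi209 (55 and 31, 0.542, 0.338 to 0.857), Slfn5 (57 and 24, 0.405, 0.240 to 0.663) and Slfn8 (47 and 20, 0.410, 0.230 to 0.705). Not all members followed, since Isg15, a ubiquitin-like protein, had a ratio of 1.33 (0.889 to 1.99) and Bst2 and Irf7, given above, stood above 1. In T cells 48 of 48 genes of this list had a ratio below 1 and 29 were lower past the fold, in B cells 14 of 17 were below 1 with 0 past the fold, and in macrophages 22 of 33 were below 1 with 2 past it. Slfn5 stood at 0.390 and Ifi209 at 0.478 in T cells.

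All 13 counted genes of class II antigen presentation had a ratio below 1 in the pDCs, with a median log2 ratio of -0.36, and 3 were lower past the fold. Over all counted genes 46.8% had a ratio above 1 and 4.26% were lower past the fold. H2-Eb1, a chain of the peptide-binding molecule, gave 1155 UMIs in the anti-IgG and 792 in the anti-PD1 pDCs, a ratio of 0.660 (0.602 to 0.723). H2-DMb2, which helps load peptides, gave 54 and 31 (0.552, 0.343 to 0.875), and Icosl, a costimulatory ligand, 19 and 6 (0.304, 0.0993 to 0.791), with 28.0% of its UMIs in 1 cell. Without the neutrophil-bearing and the T-marker-bearing cell, 12 of 12 counted genes were still below 1 but 0 were past the fold, with H2-Eb1 at 0.734 (0.668 to 0.806), H2-DMb2 at 0.863 (0.513 to 1.45) and Icosl at 0.473 (0.146 to 1.36). The more abundant Cd74 (6372 and 5880 UMIs, 0.888, 0.857 to 0.920), H2-Aa (2178 and 1827, 0.807, 0.758 to 0.859) and H2-Ab1 (1477 and 1313, 0.856, 0.794 to 0.922) were lower by less. These transcripts are made by several cell types, and H2-Aa stood at 0.784 in macrophages but at 1.39 in B cells and 1.76 in T cells. In B cells 14 of 16 genes of the list had a ratio above 1, and in macrophages 11 of 13 below 1. Class I presentation showed no such lean, with 8 of 13 genes above 1, a median log2 ratio of 0.07 and 1 gene past the fold, the peptide transporter Tap1 (0.649, 0.462 to 0.905).

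Transcripts of PD1 and its ligands were scarce in pDCs. Pdcd1 was seen in 1 of 73 and 4 of 89 pDCs (1.37% and 4.49%), against 24.5% and 29.1% of T cells, and thinned to equal depth in 0 and 1.14% of pDCs against 9.78% and 14.1% of T cells. Cd274, which encodes the ligand PD-L1, was seen in 10 and 4 pDCs (10 and 4 UMIs, ratio 0.385, 0.0881 to 1.33), and Pdcd1lg2, which encodes PD-L2, in 1 cell of each library. The counts were too low, with 1 library per group, to tell a difference in either ligand. Among 8 counted checkpoint and immune regulation genes, Pvr, a ligand of the receptor TIGIT, was higher (13 and 28 UMIs, 2.07, 1.04 to 4.36) and the inhibitory receptor Btla lower past the fold (29 and 15, 0.498, 0.248 to 0.959). Btla was lower in T cells as well (0.562).

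Among 13 counted homing genes, 1 was higher and 1 lower past the fold, and the median log2 ratio was -0.22. Cxcr3, the receptor for interferon-induced chemokines, was lower past the fold with 98 and 67 UMIs (0.658, 0.475 to 0.907; T cells 0.553), and without the neutrophil-bearing and the T-marker-bearing cell it was no longer past it. Cmklr1, the chemerin receptor, was higher with 5 and 17 UMIs (3.27, 1.16 to 11.3), but in thinned cells its ratio was 0.830 on 1 and 1 UMIs.

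Chemokines and cytokines were few, and all 7 counted genes had a ratio above 1, against 46.8% of all counted genes. Their median log2 ratio was 0.94. That median was the value of Il1b (8 and 16 UMIs), of which all 8 lay in the T-marker-bearing cell and 15 of the 16 in the neutrophil-bearing cell, and without the latter its ratio was 0.121. Without the neutrophil-bearing and the T-marker-bearing cell, 6 genes were counted, all above 1, and the list median was 0.48, and with cells thinned to 1000 UMIs it was 0.47. Ccl4, which attracts leukocytes, was the most abundant and gave 1038 and 1535 UMIs in 49 and 76 cells (1.42, 1.31 to 1.54), so it was seen in 67.1% and 85.4% of pDCs. Ccl3, its close relative, gave 7 and 53 UMIs in 5 and 15 cells (7.29, 3.30 to 19.0), with 41.7% of all its UMIs in 1 cell. Il12a, the p35 subunit of interleukin 12, gave 32 UMIs in 18 anti-IgG and 78 in 38 anti-PD1 cells (2.35, 1.54 to 3.66). It was at 0 in all macrophages and T cells. In B cells it gave 5 and 5 UMIs, in 8.47% and 3.36% of them (0.485, 0.112 to 2.11). In a random thinning of pDCs to 1000 UMIs, 8 and 3 Il12a UMIs remained and the ratio was 0.311 (0.0532 to 1.30). In the draw behind the thinned shares given here, Il12a was seen in 8.22% and 6.82% of pDCs. On so few UMIs the thinned direction of Il12a is uncertain. Its partner Il12b was at 0 in all pDCs. In macrophages Ccl4 and Ccl3 stood at 4.91 and 5.38, and in T cells at 2.43 and 3.86. The list also leaned upward there, with 12 of 15 genes above 1 in macrophages and 13 of 16 in T cells.

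Immediate early genes, which respond to stimulation within minutes and also to tissue digestion, held the widest split. Of 31 counted, 20 had a ratio above 1 and 14 were higher past the fold, while 3 were lower past it (median log2 ratio 0.47). Over all counted genes these shares were 46.8%, 3.79% and 4.26%. Nr4a1, an orphan nuclear receptor induced by calcium and cyclic AMP signals, gave 48 UMIs in 16 of 73 anti-IgG pDCs and 234 in 59 of 89 anti-PD1 pDCs, a ratio of 4.69 (3.43 to 6.54). Its median per cell was 0 and 1.75 UMIs per 10000, its highest value 12.8 and 26.7, and the ranges overlapped. Its relative Nr4a3 gave 14 and 66 UMIs (4.54, 2.52 to 8.75), and the cyclic AMP-responsive modulator Crem 16 and 46 (2.77, 1.54 to 5.24). The inhibitor of NF-kB Nfkbia gave 183 and 382 UMIs (2.01, 1.68 to 2.41), the kinase Pim1 63 and 153 (2.34, 1.73 to 3.19) and the phosphatase Dusp5 114 and 264 (2.23, 1.78 to 2.80).

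Among the genes of AP-1 subunits in the list, the ratio lay on either side of 1. Jun, a core subunit of AP-1, gave 1119 UMIs in the anti-IgG and 496 in the anti-PD1 pDCs, a ratio of 0.427 (0.383 to 0.475). Fos gave 677 and 505 (0.718, 0.638 to 0.807), and Fosb 121 and 94 (0.748, 0.565 to 0.987), whereas Junb gave 328 and 530 (1.56, 1.35 to 1.79) and Jund 653 and 926 (1.36, 1.23 to 1.51). Atf3 gave 17 and 48 (2.72, 1.53 to 5.04), with 30.8% of its UMIs in 1 cell, and Fosl2 gave 1 and 3 UMIs and was not counted. The phosphatase Dusp1 (180 and 86 UMIs, 0.460, 0.351 to 0.598) and the growth inhibitor Btg2 (232 and 132, 0.548, 0.439 to 0.681) were lower past the fold with Jun. Nr4a1 was higher in all 3 other cell types, at 4.76 in T cells, 3.83 in B cells and 21.5 in macrophages. Jun was lower in T cells (0.573) and B cells (0.344) but not in macrophages (1.46). In macrophages 34 of 35 immediate early genes had a ratio above 1, and in T cells 29 of 38. The part that digestion or handling of a library has in them was not tested.

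**Figure D3:**
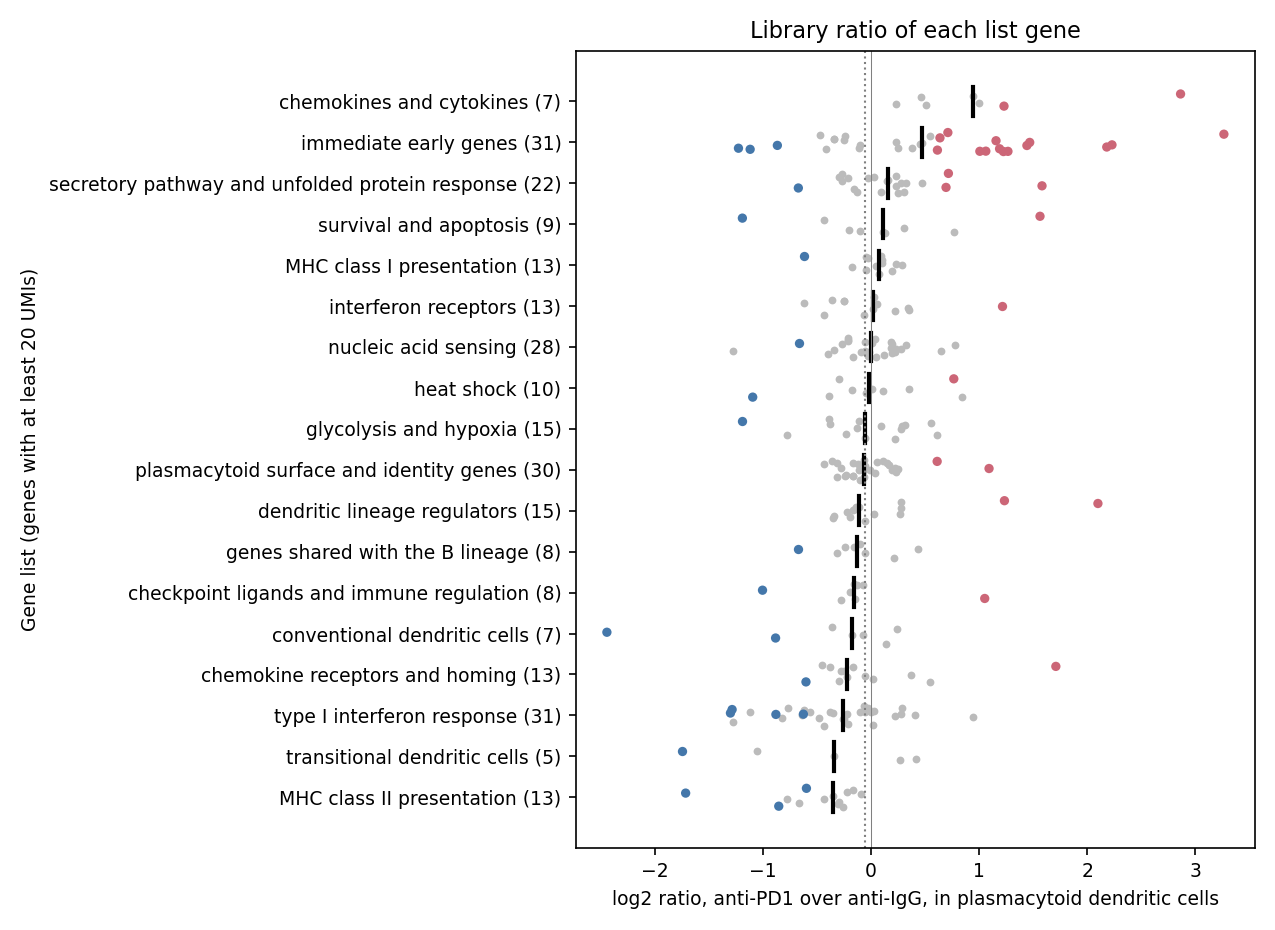
Library ratio (log2, anti-PD1 over anti-IgG) of each counted gene (points) in 18 gene lists, with the list's median as a black bar and its number of counted genes in parentheses; red and blue points are higher and lower past the fold, the dotted line is the median of all counted genes (-0.06). Chemokines and cytokines and immediate early genes lie highest (medians 0.94 and 0.47, or 0.47 and 0.23 in cells thinned to 1000 UMIs) and class II presentation lowest (-0.36, or -0.22 without 2 cells that hold neutrophil or T cell transcripts).

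The promoters of Nr4a1 and Nr4a3 are shown because both genes are cyclic AMP targets and their windows hold several copies of the short cyclic AMP response element TGACG, which reads CGTCA on the other strand. The 250 bases before the RefSeq start follow (GRCm38.p6, plus strand, elements in capitals), at chr15:101266596-101266845 for Nr4a1 and chr4:48045055-48045304 for Nr4a3.
Nr4a1: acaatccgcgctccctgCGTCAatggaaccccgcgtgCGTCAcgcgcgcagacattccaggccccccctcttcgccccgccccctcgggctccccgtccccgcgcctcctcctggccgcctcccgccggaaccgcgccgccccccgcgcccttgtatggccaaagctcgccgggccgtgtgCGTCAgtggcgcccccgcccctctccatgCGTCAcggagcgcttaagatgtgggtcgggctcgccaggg
Nr4a3: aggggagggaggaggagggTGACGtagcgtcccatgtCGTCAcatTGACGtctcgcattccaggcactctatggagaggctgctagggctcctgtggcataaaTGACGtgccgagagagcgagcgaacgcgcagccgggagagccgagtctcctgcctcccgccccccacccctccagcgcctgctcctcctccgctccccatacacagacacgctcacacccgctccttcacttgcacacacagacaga
Each holds 4 copies, which begin 233, 213, 69 and 40 bases before the start in Nr4a1 and 231, 213, 205 and 147 bases before it in Nr4a3. At least 1 copy stood in 20 of 38 windows (52.6%) of the immediate early list against 17.8% of all windows. A match is again only a run of letters, and these promoters were picked for their copies.

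The 12 highest and 12 lowest ratios, chosen among genes with at least 50 summed UMIs, named further genes. Rgcc, a regulator of the cell cycle, gave 18 UMIs in 11 anti-IgG and 116 in 27 anti-PD1 pDCs (6.2, 3.76 to 10.8). Tent5c, which lengthens the tails of messages for secreted proteins, gave 23 UMIs in 15 and 147 in 51 cells (6.15, 3.95 to 10.0), so it was seen in 20.5% and 57.3% of pDCs. In cells thinned to 1000 UMIs, Rgcc stood at 2.07 on 4 and 10 UMIs and Nr4a1 at 2.07 on 10 and 25, and over all cells with at least 2 Siglech UMIs Rgcc stood at 3.80 and Tent5c at 3.04. Kdm6b, a histone demethylase, gave 18 and 71 UMIs (3.80, 2.24 to 6.77), Dennd4a 43 and 162 (3.63, 2.58 to 5.20), Tamalin 37 and 137 (3.56, 2.46 to 5.27) and the phosphodiesterase Pde4b, which breaks down cyclic AMP, 41 and 128 (3.0, 2.1 to 4.38). Nr4a1, Nr4a3, Irf4, E430024P14Rik (4.25), Bach1 (3.07) and Gem (3.06) made up the rest. All 12 were seen in more anti-PD1 than anti-IgG cells by share.

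At the low end stood Ddit4, a stress-induced inhibitor of the mTOR kinase, with 124 UMIs in 40 anti-IgG and 28 in 23 anti-PD1 pDCs (0.217, 0.139 to 0.330). It was also lower in T cells (0.489) and macrophages (0.159). Rgs1, which dampens chemokine receptor signals, gave 197 and 80 UMIs (0.391, 0.298 to 0.509) but stood at 1.31 in T cells. Ckb, a creatine kinase, gave 53 and 15 (0.272, 0.143 to 0.490) against 1.26 in T cells. The linker histone H1f4 gave 143 and 60 UMIs (0.404, 0.294 to 0.550). Gm4258 (0.298), Rp2 (0.356), A130071D04Rik (0.365), Ikbip (0.380), Phf12 (0.385), Rere (0.400), Slfn8 and Slfn5 completed the group. Thinned, Phf12 stood at 0.995 (5 and 6 UMIs), Ckb at 0.622 (8 and 6) and H1f4 at 0.747 (10 and 9). Over all cells with at least 2 Siglech UMIs, Phf12 stood at 0.865, Ckb at 0.696 and Rgs1 at 0.729. Of the survival genes, Bcl2l11, a promoter of cell death, gave 28 and 86 UMIs (2.96, 1.91 to 4.70) and Xiap, an inhibitor of it, 44 and 20 (0.437, 0.244 to 0.758), and these were the only 2 of 9 counted past the fold. Thinned, Xiap stood at 0.830 on 3 and 3 UMIs. Bcl2l11 was also higher in macrophages (3.08, 1.29 to 8.90), B cells (2.32, 1.12 to 5.41) and T cells (1.69, 1.57 to 1.82). Xiap stood at 0.687 in T cells and 0.857 in macrophages but at 2.01 in B cells.

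**Figure D4:**
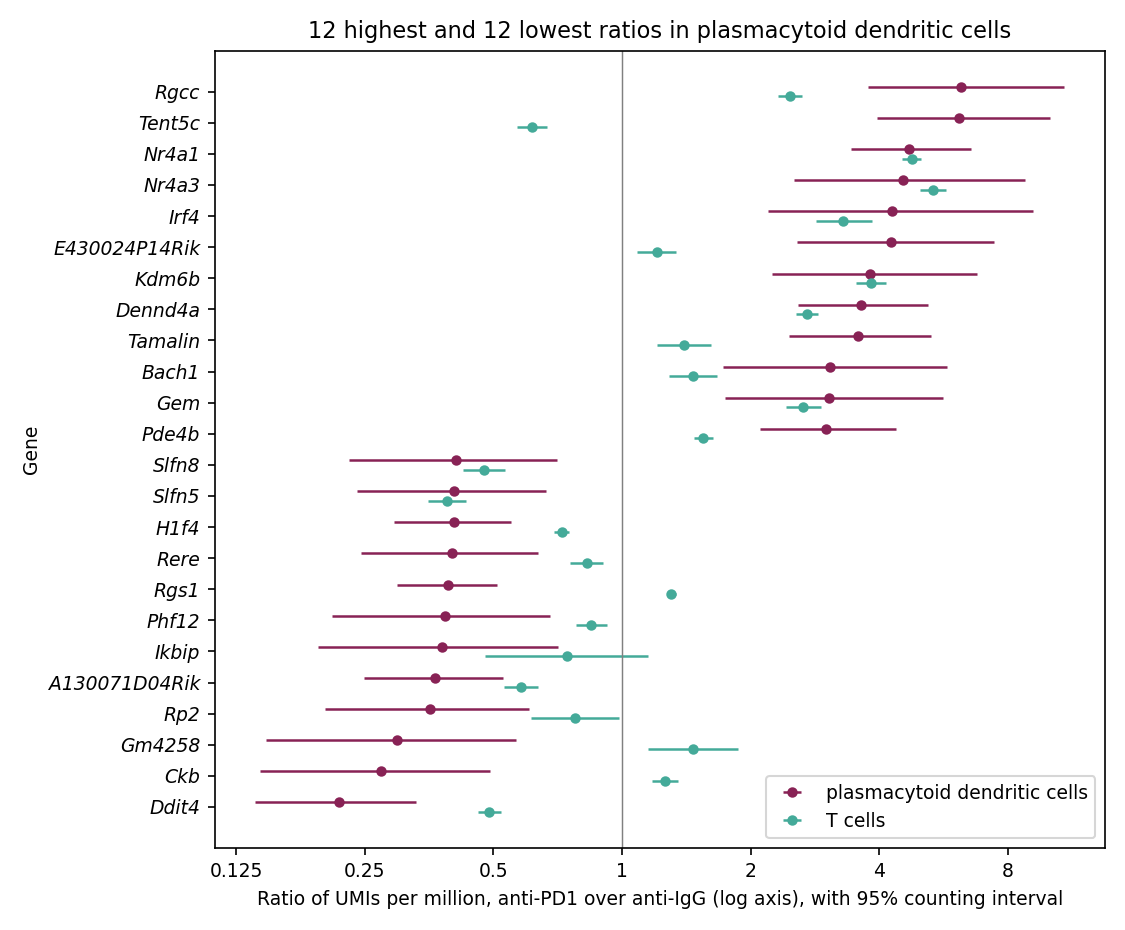
Library ratio (log axis, anti-PD1 over anti-IgG) of the 12 highest and 12 lowest genes in pDCs, with 95% counting intervals, beside the ratio of the same gene in T cells. Nr4a1, Nr4a3, Irf4 and Kdm6b lie close together in both cell types, while Tent5c is at 6.15 in pDCs and 0.615 in T cells and Rgs1 at 0.391 and 1.31.

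Secretory, heat shock and glycolytic genes showed little common direction. Of 22 counted secretory and unfolded protein response genes 3 were higher (Edem1, 1.64, Atf4, 1.62, and Ddit3, 2.99) and 1 lower past the fold (median log2 ratio 0.15). In thinned cells Edem1 stood at 0.968 on 6 and 7 UMIs and Atf4 at 0.498 on 10 and 6. The gene that was lower was Mzb1, a chaperone of the endoplasmic reticulum shared with B cells, with 149 and 97 UMIs (0.626, 0.480 to 0.814). The transcription factor Xbp1, which builds the secretory apparatus, was seen in 87.7% and 93.3% of pDCs (1.19, 0.994 to 1.42). Of 10 heat shock genes Dnajb1 was higher (1.70, 1.17 to 2.49) and Hsph1 lower past the fold (0.467, 0.246 to 0.857), and of 15 glycolysis and hypoxia genes Hk1 alone was past it (0.437, 0.185 to 0.963), although its ratio was 1.11 over all cells with at least 2 Siglech UMIs.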

How the data were processed

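Single-cell RNA was measured in 1 anti-IgG and 1 anti-PD1 library of mouse heart cells with a droplet 3′ kit, per the labels' protocols. The authors deposited a matrix of unnormalised UMI counts for each library. Per the file headers it was written by Cell Ranger 7.1.0, but version 7.2.0 is given in the submitters' processing notes, which also list mm10 and Seurat 4.4.0. Kept cells had at least 300 genes, 500 UMIs and at most 10% mitochondrial UMIs (4309 of 4380 and 5835 of 6026 barcodes, with 22806806 and 29046341 UMIs in all). Doublets were not removed in the values given, and alternatives treat them. Macrophages held at least 5 C1q UMIs, B cells at least 2 of Cd79a and T cells at least 2 of Cd3e, each without the markers of the others and of Siglech. Conventional dendritic cells chosen by Zbtb46 and 4 further genes (11 and 10 cells) were left out, because 7 and 5 of them held the endothelial gene Cdh5. Most pDCs also held Cdh5, as given below, so this gene does not set those cells apart from pDCs. The pDCs were therefore not compared with conventional dendritic cells as a group.

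UMIs were summed per library and cell type and divided by their total. Ratios have exact conditional and shares exact Clopper-Pearson 95% intervals. Counted genes had at least 20 summed UMIs. Named genes were the 20 highest in pDCs over other cells, the 12 highest and lowest library ratios (at least 50 UMIs, no cell above 25% of them), up to 4 per list, all regulators, identity genes and interferon ligands, and PD1 and its ligands; genes outside this rule were picked after their values were seen. Members, lists and motifs were chosen with earlier results of these data known. Ddit3 and Aldoa each had more than 1 identifier, and the 1 with more UMIs was used. Python 3.11.15 with numpy 2.4.6, scipy 1.17.1, pandas 2.3.3, scanpy 1.11.5 and matplotlib 3.10.9 were used. The ratio was tested on simulated counts with known folds. Those counts hold no spread between cells or libraries, so that test does not bear on such spread. No other design has replicates, so no p-value is given.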

Additional observations from a re-analysis of the deposited data

Results flagged for a closer look

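Tent5c had opposite library ratios in pDCs and lymphocytes. It was higher in the anti-PD1 pDCs, at 6.15 (3.95 to 10.0), and lower in the anti-PD1 T cells, at 0.615 (0.568 to 0.666, 1449 and 1073 UMIs), and B cells, at 0.369 (0.192 to 0.698). The B cell value rests on 25 UMIs in 3 of 59 and 19 UMIs in 6 of 149 cells. The rise of Tent5c was not particular to pDCs. In macrophages it was also higher in the anti-PD1 library, at 3.04 on 4 and 25 UMIs, with an interval that excludes 1. Rgcc was at 6.2 (3.76 to 10.8) in pDCs and at 0.364 (0.157 to 0.820) in B cells, where all 16 anti-IgG UMIs lay in 1 cell and the 12 anti-PD1 UMIs in 7, so the share of B cells with a UMI was 1.69% and 4.70%. Each group is 1 library, so the difference between cell types was not tested.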

How the results depend on the processing

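Each result was recomputed under 12 alternatives chosen at the start and 3 chosen after seeing the data, 1 change at a time. Over 147 named genes, 2042 ratios were recomputed. Of these, 82, from 45 genes, crossed 1, and 7 of them belonged to genes that were past the fold. The neutrophil genes S100a8, S100a9 and Retnlg, at 0 UMIs in the anti-IgG pDCs, were left out of this count. With 0 UMIs of 6 further T and B cell genes required, the shares of pDCs were 1.02% and 1.15%. With cells thinned to 1000 UMIs, 51 genes were higher and 45 lower past the fold. Only 31 of the 542 genes past the fold without thinning kept their call and its direction. Of the named genes, Il12a then stood at 0.311 (8 and 3 UMIs), Cmklr1 at 0.830 (1 and 1), Edem1 at 0.968 (6 and 7), Lat at 1.66 (1 and 2) and Atf4 at 0.498 (10 and 6). Each stood on the other side of 1, but on so few UMIs of a random draw the direction is uncertain. Thinning also gave Nr4a1 its lowest ratio, 2.07 on 10 and 25 UMIs. Requiring 50 summed UMIs left 170 higher and 178 lower. Keeping every cell with at least 2 Siglech UMIs, an alternative chosen after seeing the data, gave shares of 2.41% and 2.26%, 404 genes higher and 427 lower, and Hk1 at 1.11. Requiring 10 of the 14 further markers, also chosen after seeing the data, gave S100a4 at 2.47. The cause of these changes was not tested. Scrublet's automatic threshold marked 0 and 4 cells, so the 149 and 272 highest scores were removed instead, 1 and 0 of them pDCs. No paired analysis was possible because each group is 1 library, and for the same reason no replicate could be left out.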

Other observations

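Besides the 162 pDCs, 28 anti-IgG and 39 anti-PD1 cells held at least 2 Siglech UMIs together with Cd3e. Their medians were 14517.5 and 11670 UMIs per cell, against 8093 and 7153 in pDCs, with medians of 5 Cd3e UMIs in both libraries, 23 and 16 Siglech UMIs, and 13 and 12 of the 14 pDC markers.

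The endothelial cadherin gene Cdh5 was seen in 80.8% of pDCs in the anti-IgG library and 65.2% in the other (180 and 135 UMIs), against 0.548% and 0.1% of T cells and 0 B cells. Thinned to 1000 UMIs the shares were 19.2% and 15.9% of pDCs and 0.323% and 0 of T cells. Other endothelial genes did not accompany it evenly: Pecam1 was seen in 60.3% and 50.6%, Kdr in 19.2% and 10.1%, Egfl7 gave 4 and 1 UMIs and Emcn 0 and 1. The library ratio of Cdh5 was 0.722 in pDCs and 0.0844 in T cells.

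Mgl2, a lectin of macrophages and conventional dendritic cells, gave 21 UMIs in 18 anti-IgG pDCs and 4 in 4 anti-PD1 pDCs (ratio 0.183, 0.0457 to 0.543), and no cell held more than 8.0% of them.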
